A study of Mus musculus with 8 samples.

Results

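Phosphoinositides are signalling lipids of cell membranes, made by adding phosphate to the inositol ring of phosphatidylinositol (PI). Lipid kinases add the phosphates and lipid phosphatases remove them, so that each membrane carries its own mixture of these lipids, which recruits proteins of insulin signalling, endocytosis and autophagy. In hepatocytes, insulin activates class I PI 3-kinases, and 5-phosphatases and 4-phosphatases then remove phosphate from their products step by step. INPP4B, the enzyme whose gene was deleted in this study, takes the 4-phosphate from PI(3,4)P2 and leaves PI(3)P, and INPP4A is its paralog with the same reaction.

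The genes described here are 39 mouse genes for phosphoinositide kinases, their subunits and phosphoinositide phosphatases, chosen by name and found by identifier in the count table among 18095 genes. They comprise 21 phosphatase genes and 18 genes for kinases and kinase subunits. RNA was measured in livers of 4 wild type (WT) and 4 Inpp4b-/- male mice, all on a high fat diet (HFD) and aged 12 weeks, so the diet is shared by both groups. The knockout is carried in every cell of the animal and not in the liver alone, the dams of these cohorts also received the HFD, and which exons were removed is not given in the sources used here. The strain is C57BL/6 by the labels and FVB by the study's methods. Whether each library came from a separate mouse is stated only through the group sizes, so p-values measure the spread between these libraries.

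Counts per library ranged from 25893430 to 31427831 in WT and from 32738435 to 36662531 in the libraries labelled Inpp4b-/-. Levels are given as CPM, the count of a gene over its library's TMM-scaled total, times 1e+06, and levels of different genes are compared only as CPM per kilobase of exon (CPM per kb). A gene was called when its adjusted p was under 0.10 and it differed by over 1.3-fold. The hepatocyte markers *Alb*, *Apoa1*, *Ttr*, *Hnf4a* and *Apob* summed to 71801 CPM or more in every library. This sum was higher in the libraries labelled Inpp4b-/- (76956 to 92892 CPM) than in WT (71801 to 76771 CPM) without overlap (p = 0.0286 in a two-sided exact permutation test, which can go no lower with 4 and 4), and most of it was *Alb*. Taken singly, 2 of the 5 markers were higher in the libraries labelled Inpp4b-/- and 3 were lower. The sums of endothelial (93.3 to 140.7 CPM), stellate (170.2 to 241.4 CPM) and cholangiocyte markers (23.7 to 40.6 CPM) overlapped between groups. Cholangiocyte sums were 23.7 to 31.6 CPM in WT and 29.7 to 40.6 CPM in the libraries labelled Inpp4b-/-. They overlapped only through WT replicate 4 (p = 0.0857 in the same permutation test). None of the 35 measured markers of 6 liver cell types was called, where 1.17% of all tested genes were. The lowest adjusted p from edgeR were 0.141 for *Spp1* (cholangiocyte) and 0.164 for *Lrat* (stellate), both higher in the libraries labelled Inpp4b-/-. Of the cholangiocyte markers 4 were higher and 1 lower, and of the stellate markers 2 were higher and 4 lower. The Kupffer cell and macrophage markers had 7 higher and 1 lower, and the endothelial markers 2 higher and 4 lower. Leukocyte markers had 5 higher and 0 lower.

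Several of the phosphatases share a catalytic motif in which a cysteine and an arginine are separated by 5 residues, while 5-phosphatase activity uses a different, metal-dependent active site. *Synj1* and *Synj2*, grouped below with the 5-phosphatases, also hold the cysteine motif, and the stretch printed for *Synj1* is that motif. The 21 bases that encode this motif are shown for the INPP4 pair, for Sac and myotubularin phosphatases described below and for *Mtmr7*, because the motif is what makes these genes 1 chemical family and because the INPP4 pair is the subject of the deletion. They are read 5′ to 3′ on the coding strand from GENCODE M21 transcripts on GRCm38, with the cysteine and arginine codons in capitals.
Inpp4a: TGCaagagtgccaaggacCGC
Inpp4b: TGTaaaagtgccaaagacAGG
Sacm1l: TGCatggattgtctagacAGA
Fig4: TGTgtggactgtttggatCGC
Synj1: TGCttggattgtctggatAGA
Mtm1: TGCagtgacggatgggacAGG
Mtmr4: TGCtctgacggctgggacCGT
Mtmr7: TGTtctgacggctgggacAGA
The *Inpp4a* motif lies in coding exon sequence at chr1:37398802-37398822 (exon 23) and the *Inpp4b* motif at chr8:82071717-82071737 (exon 22 of 23), both on the plus strand. These stretches of *Inpp4a* and *Inpp4b* differed at 5 of 21 bases, those of *Mtmr4* and *Mtmr7* at 3, and those of *Inpp4b* and *Mtmr4* at 13. The search looked for the same residues in *Inpp4a* and *Inpp4b*, and likewise in *Mtmr4* and *Mtmr7*. The base differences within these pairs therefore change no encoded residue and do not show how far the proteins differ. The search used set residue patterns of each family and not every cysteine and arginine with 5 residues between them. A pattern was found once in 13 of the 14 members searched and in *Mtmr7*, and none in the coding sequence of *Mtmr14*. Whether *Mtmr14* holds another form of the motif was not tested.

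*Inpp4b* (chr8:81342556-82127914) was the gene with the fewest reads of the 39. It was counted 6, 20, 5 and 8 times in WT replicates 1 to 4, or 0.221, 0.630, 0.168 and 0.307 CPM. In replicates 1 to 4 labelled Inpp4b-/- the counts were 33, 10, 9 and 14, or 0.916, 0.263, 0.290 and 0.393 CPM. The highest value was in a library labelled Inpp4b-/- and the lowest in WT, and the groups overlapped. The log2 ratio of mean CPM was 0.49, which the spread between libraries exceeded (p = 0.486 in an exact permutation test, two-sided, n = 4 per group), and it was -0.07 without replicate 1 labelled Inpp4b-/-. The gene was thus not lower in the libraries labelled Inpp4b-/-, and each direction given here rests on the labels. At 0.0305 CPM per kb over all libraries it ranked 17472 of 18095 genes, and it was the 1 member below the expression filter of the main test.

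Reads summed over a gene do not show which exons they came from. The pair of primers that the study used for *Inpp4b* mRNA is shown because it marks 1 stretch of the message: tgaccctgaggacattcagtt (forward, chr8:81741475-81741495) and attccaactgtggctcgttc (reverse, chr8:81743786-81743805, printed as the primer reads). In the annotation both lie in coding exon sequence, on neighbouring exons near the start of the coding region, with a product of 62 bases after splicing. Both sites are present in 7 of the 9 protein-coding transcripts of *Inpp4b*, and the active-site motif lies in the exon before the last.

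*Inpp4a* (chr1:37299865-37410736), the paralog, was far more abundant. It measured 29.1, 22.3, 26.2 and 24.3 CPM in WT replicates 1 to 4 and 26.4, 22.5, 38.3 and 39.9 CPM in replicates 1 to 4 labelled Inpp4b-/-. Replicates 3 and 4 labelled Inpp4b-/- were above every WT library and the other two lay within the WT range. The log2 fold change was 0.32 (SE 0.18, edgeR's adjusted p = 0.474), and its 95% interval in folds ran from 0.940 to 1.66. *Inpp4a* made up 97.3% to 99.5% of the pair's summed CPM per kb in every library, with a mean of 98.9% ± 0.78 in WT and 98.8% ± 0.97 in the libraries labelled Inpp4b-/- (SD, n = 4). Its mean level per kilobase was 90.3 times that of *Inpp4b*. The message of the INPP4 pair in these livers was thus almost all *Inpp4a*, in both groups.

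**Figure D1:**
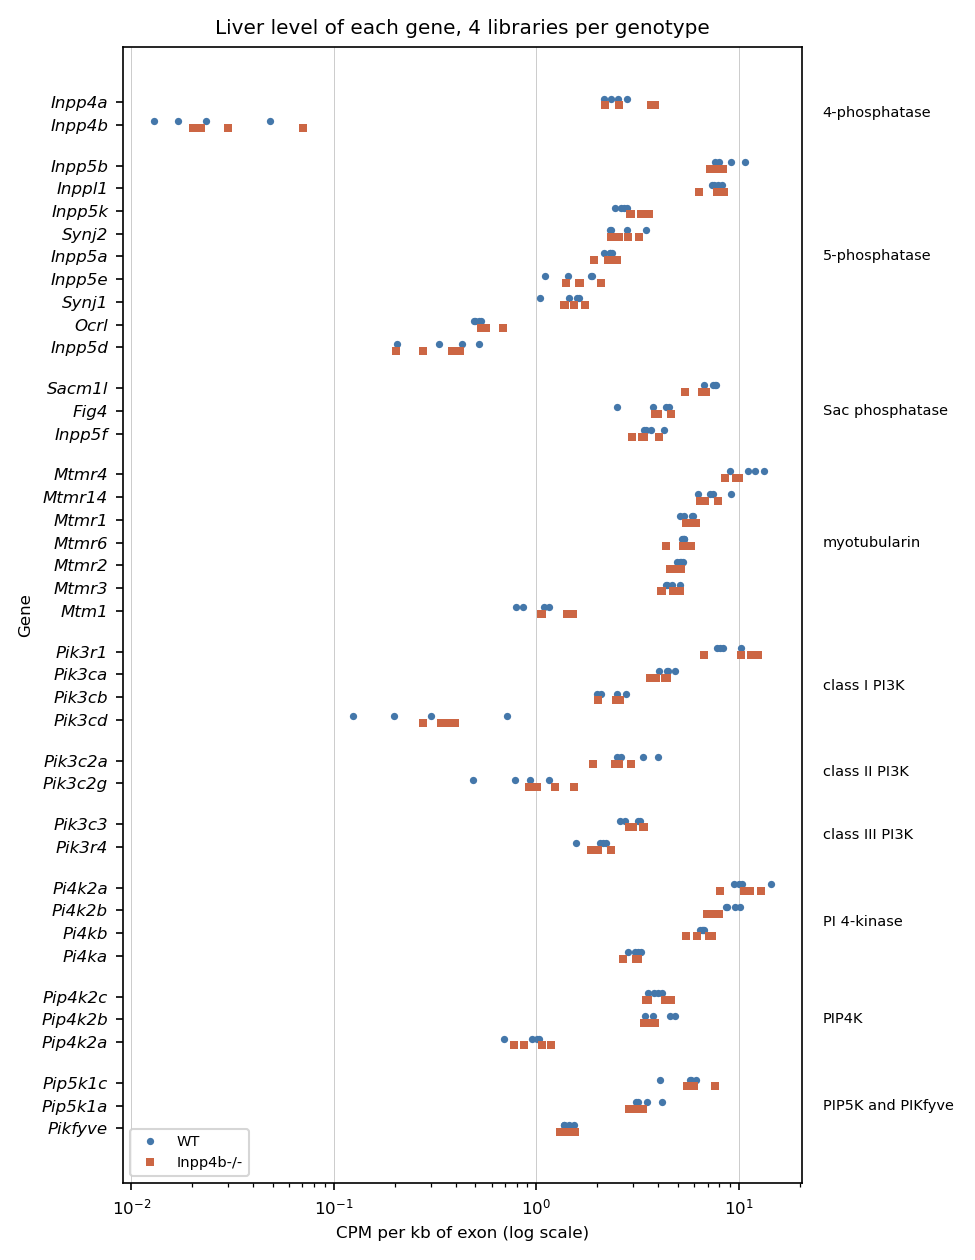
Level of each of the 39 genes in CPM per kb of exon (log axis), grouped by the reaction of the enzyme, with 1 blue circle for each of 4 WT libraries and 1 red square for each of 4 libraries labelled Inpp4b-/-. Most genes lie between 1 and 11 CPM per kb, *Inpp4b* lies lowest at 0.0305 on average, and the colours overlap for all but *Inpp5k*, *Ocrl* and *Pi4k2b*.

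Of the 38 members tested with edgeR's quasi-likelihood test, none was called between the groups, where 1.17% of all 14866 tested genes were (174 genes). DESeq2 called none of the 39 members, where it called 4.04% of the 17016 genes it gave an adjusted p (688 genes). An unadjusted p under 0.05 was reached by 2 members, *Pi4k2b* and *Inpp5k* (5.26% of 38), where 13.9% of all tested genes reached it. The 4 and 4 libraries did not overlap in CPM for 3 members, *Inpp5k*, *Ocrl* and *Pi4k2b* (7.89%), against 8.72% of all tested genes. In the libraries labelled Inpp4b-/-, 19 of the 38 had a higher and 19 a lower level, and the median log2 fold change was 0.00 (-0.0034, against 0.0027 over all tested genes). Fold changes ran from 0.791 for *Pik3c2a* to 1.40 for *Pik3c2g*. The median size of the log2 fold change, without its sign, was 0.11 for the members, 0.18 for all tested genes and 0.15 for the 9640 tested genes within the members' range of mean CPM.

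These libraries limit how large a difference could have passed unseen. The 95% interval of the fold change lay within 1.3-fold in either direction for 16 of the 38 members (42.1%, against 23.4% of all tested genes and 28.9% of those in the members' range of mean CPM). It lay within 1.5-fold for 31 (81.6%, against 46.7% and 60.0% in the same order). The 7 members whose interval went beyond 1.5-fold were *Inpp4a*, *Inpp5d*, *Mtm1*, *Pik3cd*, *Pik3r1*, *Pik3c2a* and *Pik3c2g*, so the intervals of these still held differences of that size. The median coefficient of variation between libraries was 13.4% in WT and 11.03% in the libraries labelled Inpp4b-/- for the members, 18.5% and 15.4% for all tested genes, and 14.7% and 12.2% for those in the members' range of mean CPM.

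**Figure D2:**
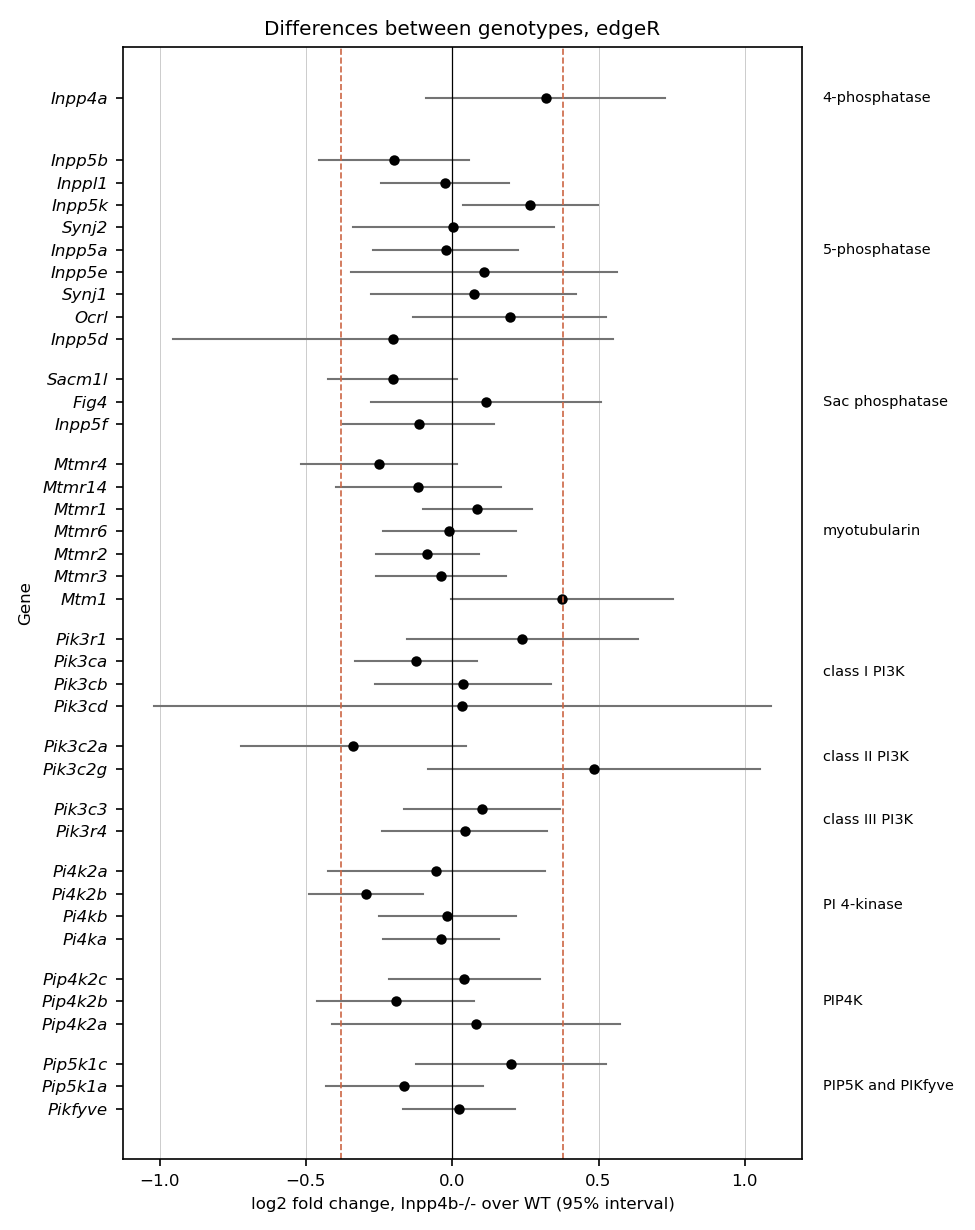
Log2 fold change of 38 members between the libraries labelled Inpp4b-/- and WT (points, edgeR, n = 4 per group) with 95% intervals (bars). The dashed lines mark a 1.3-fold difference either way, no gene was called, and the intervals of *Pi4k2b* (below 0) and *Inpp5k* (above 0) are the ones that leave 0 out.

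The 9 tested 5-phosphatases remove the 5-phosphate from PI(4,5)P2, PI(3,4,5)P3 or soluble inositol phosphates, and 5 were higher and 4 lower with none called. *Inpp5b*, a housekeeping PI(4,5)P2 5-phosphatase of early endosomes and Golgi, was the highest of them at 8.27 CPM per kb. It measured 37.0, 49.7, 42.5 and 35.4 CPM in WT replicates 1 to 4 and 33.6, 36.0, 38.6 and 35.2 CPM in replicates 1 to 4 labelled Inpp4b-/-. WT replicates 2 and 3 were the highest, the groups overlapped, and the log2 fold change was -0.20 (SE 0.11). *Inppl1*, which encodes SHIP2, the PI(3,4,5)P3 5-phosphatase that makes the substrate of INPP4B, was close behind at 7.68 CPM per kb. Its log2 fold change was -0.03 with an interval in folds from 0.844 to 1.14. Of the *Inppl1* exon length, 18.8% overlaps an antisense gene and 1.48% overlaps *Phox2a*, both on the other strand. *Synj2* and *Synj1*, whose products act on clathrin-coated vesicles, stood at 2.74 and 1.46 CPM per kb, and *Inpp5a*, which degrades soluble inositol trisphosphate, at 2.26 CPM per kb. *Inpp5e*, the 5-phosphatase of the primary cilium, stood at 1.62 CPM per kb, and 20.3% of its exon length overlaps *Pmpca* on the other strand.

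*Inpp5k* (chr11:75630988-75648871) encodes SKIP, a 5-phosphatase of the endoplasmic reticulum known to dampen insulin signalling. WT replicates 1 to 4 measured 14.0, 15.4, 16 and 14.9 CPM of *Inpp5k*, and replicates 1 to 4 labelled Inpp4b-/- measured 20.5, 16.5, 16.9 and 18.8 CPM. All libraries labelled Inpp4b-/- were above all WT libraries, and the nearest were 16.5 and 16 CPM. The log2 fold change was 0.27 (SE 0.10, unadjusted p = 0.0281, edgeR's adjusted p = 0.294), or 1.20-fold with an interval from 1.02 to 1.41. It did not pass the threshold.

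*Ocrl* (chrX:47912387-47965868), the gene of Lowe syndrome and a paralog of *Inpp5b*, was low at 0.548 CPM per kb. It measured 5.05, 4.72, 4.65 and 4.95 CPM in WT replicates 1 to 4 and 6.47, 5.31, 5.37 and 5.05 CPM in replicates 1 to 4 labelled Inpp4b-/-. The groups met at 5.05 CPM and separated only in further digits, with replicate 1 labelled Inpp4b-/- apart from the rest. The log2 fold change was 0.20 (SE 0.15, edgeR's adjusted p = 0.595).

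*Inpp5d* encodes SHIP1, known from blood cells, and was the lowest 5-phosphatase at 0.346 CPM per kb. It measured 2.51, 3.24, 1.55 and 3.96 CPM in WT replicates 1 to 4 and 3.19, 2.10, 1.54 and 2.92 CPM in replicates 1 to 4 labelled Inpp4b-/-. Its values spread over more than the difference between groups, whose log2 fold change was -0.20 (SE 0.34). WT replicate 4, the library with the most *Inpp5d*, also had the highest sum of the 5 measured leukocyte markers (9.37 CPM, of 4.85 to 9.37 in WT and 7.50 to 9.16 in the libraries labelled Inpp4b-/-). The 8 markers of Kupffer cells and macrophages summed to 50.3 to 149.7 CPM in WT and 104.8 to 188.0 CPM in the libraries labelled Inpp4b-/-. Their part in the level of *Inpp5d* was not tested, and in bulk liver more cells of a type and more RNA per cell cannot be told apart.

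**Figure D3:**
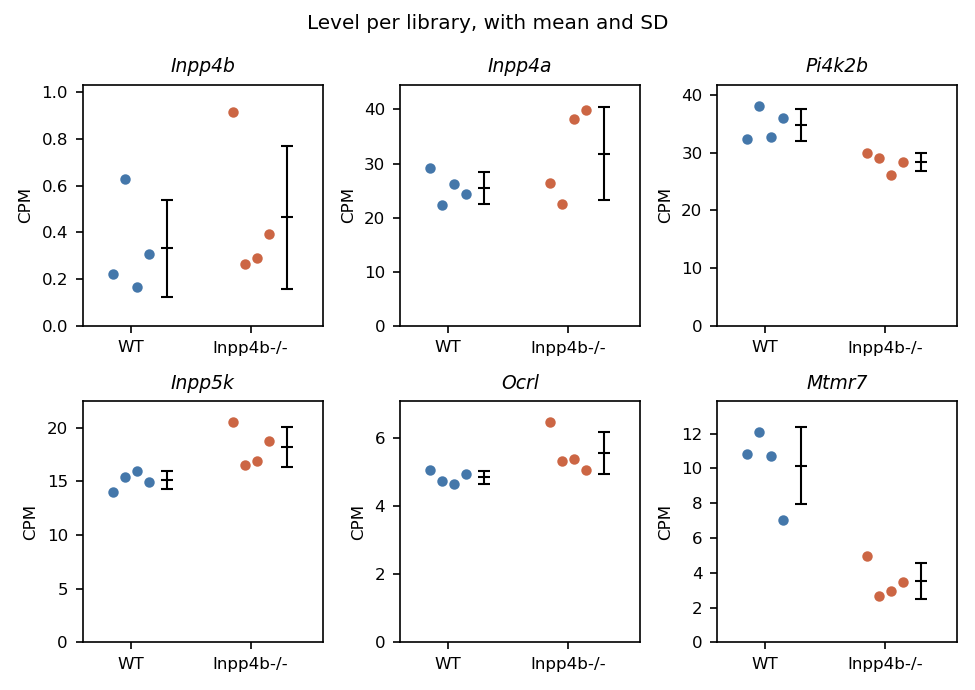
CPM of 6 genes in each library (points, replicates 1 to 4 from left to right in WT and in the libraries labelled Inpp4b-/-), with the mean and SD of each group beside them (n = 4) and axes that start at 0. *Inpp4b* stays under 1 CPM with overlapping groups, *Pi4k2b* and *Mtmr7* (no member) are lower in the libraries labelled Inpp4b-/-, and *Inpp5k* and *Ocrl* are higher without overlap.

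The Sac phosphatases share the domain of yeast Sac1. *Sacm1l*, which removes phosphate from PI(4)P at the endoplasmic reticulum, was the highest at 6.86 CPM per kb. It measured 28.4, 28.7, 27.8 and 25.0 CPM in WT replicates 1 to 4 and 24.8, 24.6, 25.7 and 20.2 CPM in replicates 1 to 4 labelled Inpp4b-/-. The groups overlapped only between 25.0 and 25.7 CPM, and the log2 fold change was -0.20 (SE 0.10, edgeR's adjusted p = 0.394). Since 48.2% of its exon length overlaps *Slc6a20b* on the other strand, and the strand setting of the counting is not given in the sources used here, its level is uncertain. *Inpp5f*, a PI(4)P phosphatase of endosomes also called Sac2, was the lowest of the 3 at 3.57 CPM per kb. It measured 29.1, 28.4, 35.4 and 30.6 CPM in WT replicates 1 to 4 and 28.3, 33.6, 27.5 and 24.5 CPM in replicates 1 to 4 labelled Inpp4b-/-, with overlap. *Fig4*, which works in a complex with PIKfyve on PI(3,5)P2, stood between them at 3.94 CPM per kb.

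Myotubularins remove the 3-phosphate from PI(3)P, the product of INPP4B, and from PI(3,5)P2. The 7 members had the largest summed level of the 10 groups, 40.5 ± 2.2 CPM per kb in WT and 38.3 ± 1.3 CPM per kb in the libraries labelled Inpp4b-/- (SD, n = 4), and 2 were higher and 5 lower with none called. *Mtmr4*, a myotubularin of endosomes, led at 10.5 CPM per kb. It measured 74.5, 56.5, 69.4 and 83.2 CPM in WT replicates 1 to 4 and 53.5, 60.5, 62.2 and 62.5 CPM in replicates 1 to 4 labelled Inpp4b-/-. WT replicates 1, 3 and 4 were above every library labelled Inpp4b-/- and WT replicate 2 was not, and the log2 fold change was -0.25 (SE 0.12, edgeR's adjusted p = 0.391). *Mtmr14*, *Mtmr1*, *Mtmr6*, *Mtmr2* and *Mtmr3* followed at 7.21, 5.71, 5.28, 4.97 and 4.59 CPM per kb. *Mtmr2*, whose human counterpart is mutated in a form of Charcot-Marie-Tooth neuropathy, and *Mtmr6* varied little among WT libraries, with means of 25.2 ± 0.71 CPM and 23.5 ± 0.28 CPM (SD, n = 4).

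*Mtm1*, the gene of X-linked myotubular myopathy, was the lowest myotubularin at 1.12 CPM per kb. It measured 10.99, 15.2, 16.1 and 11.9 CPM in WT replicates 1 to 4 and 21.1, 19.7, 14.8 and 14.7 CPM in replicates 1 to 4 labelled Inpp4b-/-. Replicates 1 and 2 labelled Inpp4b-/- were above every WT library and the other two lay within the WT range. The log2 fold change was 0.37 (SE 0.17, edgeR's adjusted p = 0.368). Its share of the level summed with *Mtmr1*, its neighbour and paralog on the X chromosome, was 14.9% ± 2.5 in WT and 17.7% ± 3.3 in the libraries labelled Inpp4b-/- (SD, n = 4), with overlap.

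Class I PI 3-kinases make PI(3,4,5)P3 downstream of the insulin receptor, from a catalytic and a regulatory subunit. *Pik3r1*, which encodes the regulatory subunit p85alpha, was the most abundant of the 4 at 9.38 CPM per kb. It measured 103, 84.0, 78.9 and 81.0 CPM in WT replicates 1 to 4 and 67.3, 115, 125 and 103 CPM in replicates 1 to 4 labelled Inpp4b-/-. The libraries labelled Inpp4b-/- held both the lowest and the highest values, and the log2 fold change was 0.24 (SE 0.18, edgeR's adjusted p = 0.589). *Pik3ca*, the catalytic subunit p110alpha that insulin uses in liver, stood at 4.24 CPM per kb, and *Pik3cb* (p110beta) at 2.37 CPM per kb. *Pik3ca* supplied 65.6% ± 2.2 of the level of these catalytic genes in WT and 62.9% ± 1.7 in the libraries labelled Inpp4b-/- (SD, n = 4), with overlap.

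*Pik3cd* encodes p110delta, a catalytic subunit known from leukocytes, and was the lowest class I gene at 0.339 CPM per kb. It measured 0.774, 1.89, 1.25 and 4.49 CPM in WT replicates 1 to 4 and 1.72, 2.29, 2.48 and 2.11 CPM in replicates 1 to 4 labelled Inpp4b-/-. WT replicate 4 was the highest library and WT replicate 1 the lowest, as in the sum of macrophage markers (149.7 and 50.3 CPM within WT). In the sum of leukocyte markers WT replicate 4 was also the highest (9.37 CPM). The lowest leukocyte sum was in WT replicate 3 (4.85 CPM), with WT replicate 1 at 4.94 CPM. The libraries labelled Inpp4b-/- did not follow the order of the macrophage markers. Their replicate 1 had a macrophage marker sum of 161.3 CPM with the lowest *Pik3cd* of its group, 1.72 CPM. The log2 fold change was 0.04 (SE 0.47) and became 0.71 without WT replicate 4 and -0.24 without WT replicate 1. The part of other cell types in this spread was not tested.

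Class II PI 3-kinases make PI(3)P and PI(3,4)P2, the substrate of INPP4B. *Pik3c2a*, which is widely expressed and acts in endocytosis, was the higher at 2.78 CPM per kb, and *Pik3c2g*, known as a liver-enriched form, stood at 1.01 CPM per kb. *Pik3c2a* measured 44.2, 28.9, 37.3 and 27.8 CPM in WT replicates 1 to 4 and 27.2, 32.5, 28.4 and 21.3 CPM in replicates 1 to 4 labelled Inpp4b-/-. *Pik3c2g* measured 9.92, 14.6, 6.16 and 11.8 CPM in WT replicates 1 to 4 and 15.5, 11.6, 19.5 and 12.7 CPM in replicates 1 to 4 labelled Inpp4b-/-. These were the largest differences among the 38 tested members in each direction, both groups overlapped, and neither gene was called, with log2 fold changes of -0.34 (SE 0.17) and 0.48 (SE 0.25) and edgeR's adjusted p = 0.420 and 0.431. *Pik3c2a* was 78.2% ± 8.5 of the pair's level per kilobase in WT and 67.6% ± 5.9 in the libraries labelled Inpp4b-/- (SD, n = 4). WT replicates 1 and 3 had the highest shares, 83.5% and 87.3%, and WT replicates 2 and 4, at 69.3% and 72.9%, lay within the range of the libraries labelled Inpp4b-/- (62.4% to 76.1%). An antisense gene overlaps 12.3% of the exon length of *Pik3c2a*.

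The class III PI 3-kinase makes PI(3)P for autophagy and endosomes and consists of VPS34, from *Pik3c3*, and VPS15, from *Pik3r4*. *Pik3c3* was the higher at 3.05 CPM per kb and measured 11.5, 14.2, 14.6 and 12.2 CPM in WT replicates 1 to 4 and 15.04, 15.2, 13.3 and 12.7 CPM in replicates 1 to 4 labelled Inpp4b-/-. *Pik3r4* stood at 2.02 CPM per kb and measured 20.5, 19.9, 21.3 and 15.1 CPM in WT replicates 1 to 4 and 18.04, 22.5, 19.1 and 19.5 CPM in replicates 1 to 4 labelled Inpp4b-/-. Both overlapped between groups, and the intervals of their folds, 0.892 to 1.29 and 0.847 to 1.25, lay within 1.3-fold.

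PI 4-kinases make PI(4)P, the precursor of most other phosphoinositides. *Pi4k2a*, a PI 4-kinase of the trans-Golgi network and endosomes, had the highest level of all 39 genes at 10.9 CPM per kb. It measured 63.5, 67.1, 69.5 and 96.7 CPM in WT replicates 1 to 4 and 71.0, 54.2, 85.4 and 75.3 CPM in replicates 1 to 4 labelled Inpp4b-/-, with the highest value in WT and the lowest in a library labelled Inpp4b-/-. *Pi4ka*, the PI 4-kinase of the plasma membrane, was the lowest of the 4 at 3.05 CPM per kb. It measured 34.7, 31.8, 37.0 and 35.7 CPM in WT replicates 1 to 4 and 35.1, 34.7, 29.9 and 35.7 CPM in replicates 1 to 4 labelled Inpp4b-/-. *Pi4kb*, a Golgi PI 4-kinase, stood at 6.55 CPM per kb, and 3 genes on the other strand overlap its exons by 6.03% to 10.5%. All 4 had log2 fold changes below 0, from -0.29 for *Pi4k2b* to -0.02 for *Pi4kb*, and 3 of them lay within 0.06 of 0.

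*Pi4k2b* (chr5:52741574-52769340), the type II enzyme that is partly cytosolic, had the lowest p of the members. WT replicates 1 to 4 measured 32.4, 38.1, 32.7 and 35.9 CPM of *Pi4k2b*, and replicates 1 to 4 labelled Inpp4b-/- measured 29.9, 29.1, 26.1 and 28.4 CPM. All libraries labelled Inpp4b-/- were below all WT libraries, and the nearest were at 29.9 and 32.4 CPM. The log2 fold change was -0.29 (SE 0.087, unadjusted p = 0.0073), or 0.815-fold with an interval from 0.712 to 0.934. Adjusted over all tested genes it did not pass (edgeR's adjusted p = 0.193), DESeq2 gave an adjusted p of 0.0846, and the fold was under the 1.3-fold threshold in both. Over the alternative fits the adjusted p ranged from 0.0846 to 0.416.

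The last step to PI(4,5)P2 is taken by PIP5K enzymes from PI(4)P and by PIP4K enzymes from PI(5)P. Of the PIP4K genes, *Pip4k2c* and *Pip4k2b* stood at 3.93 and 3.88 CPM per kb, which did not differ beyond their spread, and *Pip4k2a* was lowest at 0.944 CPM per kb. *Pip4k2c* measured 20.7, 21.6, 22.8 and 19.3 CPM in WT replicates 1 to 4 and 25.1, 23.5, 18.9 and 19.4 CPM in replicates 1 to 4 labelled Inpp4b-/-. *Pip4k2a* measured 3.58, 2.39, 3.30 and 3.49 CPM in WT replicates 1 to 4 and 4.08, 3.02, 3.70 and 2.70 CPM in replicates 1 to 4 labelled Inpp4b-/-. Both overlapped, and 2 of the 3 PIP4K genes were higher and 1 lower.

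*Pip5k1c* led the PIP5K genes at 5.83 CPM per kb, with *Pip5k1a* at 3.30 CPM per kb. It measured 23.5, 33.0, 32.7 and 35.3 CPM in WT replicates 1 to 4 and 43.7, 34.4, 33.2 and 31.8 CPM in replicates 1 to 4 labelled Inpp4b-/-. WT replicate 1 was low and replicate 1 labelled Inpp4b-/- high, and the remaining 6 libraries lay between 31.8 and 35.3 CPM. *Pikfyve*, whose product makes PI(3,5)P2 from PI(3)P, stood at 1.44 CPM per kb. It measured 28.0, 26.4, 26.2 and 29.3 CPM in WT replicates 1 to 4 and 29.8, 29.2, 27.4 and 25.2 CPM in replicates 1 to 4 labelled Inpp4b-/-. All WT values of *Pikfyve* lay within the range of the libraries labelled Inpp4b-/-. The log2 fold change was 0.02 with an interval in folds from 0.890 to 1.16.

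**Figure D4:**
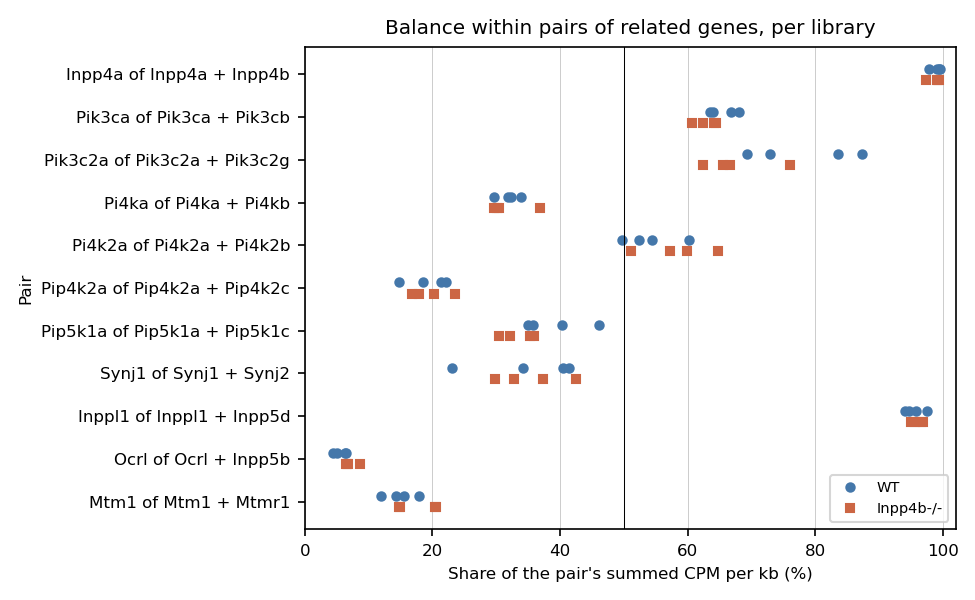
Share of the first gene in the summed CPM per kb of 11 pairs of related genes, in each of 4 WT libraries (blue circles) and 4 libraries labelled Inpp4b-/- (red squares), with a line at 50%. *Inpp4a* holds 97.3% or more of its pair in every library, *Inppl1* 94.0% or more of the level it shares with *Inpp5d*, and the groups overlap in all 11 pairs.

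In 10 of 11 pairs of related genes, the same gene was the more abundant per kilobase in all 8 libraries. *Inppl1* made up 94.0% to 97.5% of the summed level with *Inpp5d*, and *Ocrl* 4.46% to 8.63% of that with *Inpp5b*. *Pi4k2a* and *Pi4k2b* were nearer to equal, with 54.2% ± 4.4 for *Pi4k2a* in WT and 58.2% ± 5.7 in the libraries labelled Inpp4b-/- (SD, n = 4), and in WT replicate 2 *Pi4k2b* was the higher (49.7% for *Pi4k2a*). *Synj1* made up 23.1% to 42.5% of the level it shares with *Synj2*, and *Pip4k2a* 14.8% to 23.5% of that with *Pip4k2c*. In no pair did the shares of the groups separate.

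Of 61 other genes of phosphoinositide metabolism listed for this work, 56 were in the table and 52 were tested, and 5 were not analysed here. They include further phosphatases, inactive myotubularins, PI 3-kinase adaptors, phospholipases C, PI transfer proteins and readers of PI(3)P. Of the 52, 20 were higher and 32 lower, the median log2 fold change was -0.05, and 1 was called, where 1.17% of all tested genes were. This gene was *Mtmr7* (chr8:40551095-40634797), a myotubularin, whose active-site stretch is printed above. WT replicates 1 to 4 measured 10.8, 12.1, 10.7 and 7.03 CPM of *Mtmr7*, and replicates 1 to 4 labelled Inpp4b-/- measured 4.97, 2.65, 2.93 and 3.48 CPM. The groups did not overlap. It fell by 1.53 on the log2 scale (SE 0.24, edgeR's adjusted p = 0.0294), or to 0.345-fold with an interval from 0.238 to 0.5005. Without replicate 3 labelled Inpp4b-/- the log2 fold change was -1.46 and the gene was not called (edgeR's adjusted p = 0.108). At 1.54 CPM per kb over all libraries, *Mtmr7* was lower than 6 of the 7 myotubularins among the members, all but *Mtm1*.

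*Mtmr7* lies 40.7 Mb from *Inpp4b* on the same chromosome. On chromosome 8, 39 of 828 tested genes were called (4.71%), against 1.17% of all tested genes, and *Mtmr7* was 1 of the 4 tested genes of the list there. Of the 39 members, *Inpp4b* is the 1 on chromosome 8. What this location has to do with the lower level of *Mtmr7* was not tested.

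An unadjusted p under 0.05 was reached by 3 more of these 52 genes, which are named after their values were seen. *Sbf1*, an inactive myotubularin partner, had a log2 fold change of -0.20 (SE 0.077, edgeR's adjusted p = 0.301). *Pik3r2*, a regulatory subunit of class I PI 3-kinase on chromosome 8, had one of 0.28 (SE 0.099, edgeR's adjusted p = 0.260). *Plcl2*, an inactive relative of phospholipase C, had one of 0.54 (SE 0.20, edgeR's adjusted p = 0.274). With *Mtmr7* these are 7.69% of the 52, against 13.9% of all tested genes.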

How the data were processed

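Livers of 4 HFD WT and 4 HFD Inpp4b-/- males were sequenced. The genotype, replicate number and age came from the labels and the diet from the series design. Reads (paired-end, 150 bp) were mapped by the authors with HISAT2 to GRCm38 and counted per gene with HTSeq, and the deposited values are raw counts, which were used here. Their size-factor normalized table was not used. Strand setting and annotation release of the counting are not given in the sources used here.

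Symbols, coordinates, transcripts and merged exon lengths came from GENCODE M21, in which all 18095 identifiers were found. edgeR 4.0.16 in R 4.3.3 was used with TMM, filterByExpr, estimateDisp, glmQLFit and glmQLFTest on 14866 genes, with Benjamini-Hochberg adjustment over all of them. Calls used the thresholds of the study's methods. For *Inpp4b*, the log2 ratio is that of mean CPM with nothing added, and its exact permutation test used log2(CPM + 0.1) over 70 arrangements. The procedure was tested on simulated data. The alternatives were DESeq2 1.42.0, DESeq2's size factors, no filter beyond 1 count, an adjusted p under 0.05, no fold threshold, 0.5 CPM added in the permutation test, leaving out each library and a replicate block. DESeq2 with no fold threshold was added after the data were seen.

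Every member was named, and values per library were given for *Inpp4b*, *Inpp4a*, members called, with an unadjusted p under 0.05 or without overlap, and the highest and lowest of each reaction group. The members and lists were chosen with earlier results of these data known. Near-identical or overlapping genes have uncertain counts. The precision of counts is limited by depth, from 25893430 to 36662531 per library.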

Additional observations from a re-analysis of the deposited data

Results flagged for a closer look

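The CPM of the 39 members and of the 4 other phosphoinositide genes with an unadjusted p under 0.05, and the summed CPM of the 6 marker lists, were examined in each genotype, 98 groups of 4 libraries in all. In these groups no library lay far from the other 3 (past Dixon's 95% limit), where chance, about 1 in 20, would give 4.9.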

How the results depend on the processing

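No member was called with edgeR under any alternative planned, and DESeq2 called none at the same thresholds. With DESeq2 and no fold threshold, chosen after seeing the data, 1 member was called, *Pi4k2b* (adjusted p = 0.0846). Over 38 members and 12 alternative fits there were 456 log2 fold changes, of which 419 kept the direction and 37 reversed it, and 20 members never reversed. Without 1 library at a time, the log2 fold change changed sign for 18 members, none of them called: *Fig4* (-0.038 to 0.21), *Inpp5a* (-0.074 to 0.045), *Inpp5d* (-0.40 to 0.0045), *Inpp5e* (-0.026 to 0.21), *Inppl1* (-0.077 to 0.052), *Mtmr3* (-0.10 to 0.0095), *Mtmr6* (-0.059 to 0.072), *Pi4k2a* (-0.15 to 0.10), *Pi4ka* (-0.089 to 0.017), *Pi4kb* (-0.0801 to 0.062), *Pik3cb* (-0.032 to 0.12), *Pik3cd* (-0.24 to 0.71), *Pik3r4* (-0.055 to 0.10), *Pikfyve* (-0.0086 to 0.071), *Pip4k2a* (-0.046 to 0.18), *Pip4k2c* (-0.035 to 0.10), *Synj1* (-0.049 to 0.14) and *Synj2* (-0.082 to 0.14). *Synj2* was also below 0 with DESeq2's size factors (-0.0047) and with DESeq2 (-0.0042). *Inpp4b* ranged from -0.07 to 1.002 without 1 library at a time. The number of other phosphoinositide genes called was 0 to 1 without 1 library at a time and 0 with a replicate block, where *Mtmr7* had an adjusted p of 0.151 from edgeR. Of all genes, 688 were called with DESeq2, 26 with the block, 71 at an adjusted p under 0.05 (a stricter threshold) and 53 to 345 without 1 library at a time (53 without replicate 2 labelled Inpp4b-/-, 345 without WT replicate 2), and the cause was not tested. Libraries were not paired by their replicate numbers, as deviations of same-numbered libraries correlated at -0.114, -0.131, -0.0104 and -0.17, against -0.0339 to 0.139 for other pairs, and the block changed no call of a member. By replicate number, the mean difference of log2(CPM + 0.1) of *Inpp4b* was 0.37 (exact sign-flip test, p = 0.625), which is another quantity than its ratio of mean CPM and is the same without the block. Depth limits *Inpp4b*, at 5 to 33 counts per library.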
